A study of Mus musculus with 24 samples.

Results

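The genes described here are 10 apolipoprotein genes, Apoa1, Apoa2, Apoa4, Apoa5, Apob, Apoc1, Apoc3, Apoe, Apoh and Apom, chosen by name and not by any measured value. Of these 10, 9 were measured among 16504 named genes, on 12 array features. Apob had 4 features and each of the others had 1, and Apoa4 was not analysed here. The data are from livers of male mice that lack Abcb4, the transporter that moves phosphatidylcholine across the hepatocyte membrane into bile (strain FVB.129P2-Abcb4tm1Bor/J), and of male wild type mice of the strain FVB/NJ. Total RNA of both genotypes was hybridised together to 24 arrays with 2 colours, described in the labels as spotted cDNA arrays, with 6 arrays at each of 3, 6, 9 and 20 weeks and 3 of each 6 in either dye orientation. The week was read from the array titles. In the labels, one entry places these times after weaning, and the tissue names carry 3 weeks throughout. Since the series design has 5 mice of either genotype at each time and a single dye swap, mice recur on 1 or more of every 6 arrays, and p-values measure a spread between arrays that is partly technical.

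Each value is a log ratio of knockout over wild type, centred on the median of its array, and weekly values are given as mean ± SD (n = 6 arrays). The logarithm was taken to have base 2, which no source states. The direction is likely rather than stated: it rests on reading the table as Cy5 over Cy3, under which Abcb4 is lower in the knockout. With the opposite reading every "higher" below would be "lower". Under this reading Abcb4 lay below 0 on 24 of 24 arrays, with weekly means from -1.57 to -0.87, which is the assumption seen again and not an independent check. The position of its probe relative to the deletion was not settled here. Arrays of one week with opposite dye orientation, once turned to one direction, correlated over all features with median r values of 0.29, 0.47, 0.51 and 0.36 in order of week, so single arrays of the 3-week group agreed least. A ratio does not give a level, so the tissue could not be checked against liver markers, and levels of different genes cannot be set against each other.

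Apolipoproteins are the protein part of lipoproteins, the particles that carry triglyceride, cholesterol and phospholipid in plasma, and the liver is their main source together with the intestine. Apob is the structural protein of very-low-density and low-density lipoproteins. Apoa1 and Apoa2 are the main proteins of high-density lipoprotein, and Apom is a minor protein of the same particles that carries sphingosine-1-phosphate. Apoc3 inhibits lipoprotein lipase and remnant uptake, Apoa5 promotes triglyceride hydrolysis, and Apoc1 is a small exchangeable protein of several particle classes. Apoe is the ligand through which remnants bind receptors of the LDL receptor family. Apoh, also called beta-2-glycoprotein I, is a phospholipid-binding plasma protein. The comparison asked how these genes differ in liver that cannot secrete phosphatidylcholine into bile, and whether the difference varies with time.

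Several of the genes lie side by side. In the mouse assembly GRCm38.p6, Apoa1 (chromosome 9, bases 46228630 to 46230469), Apoc3 (46233050 to 46235636), Apoa4 (46240844 to 46243458) and Apoa5 (46268608 to 46271921) form a cluster with gaps of 2581, 5208 and 25150 bases. Apoc1 (chromosome 7, bases 19689480 to 19692659) and Apoe (19696244 to 19701310) are 3585 bases apart. Apoa2 is on chromosome 1 (171221564 to 171226379), Apoh on chromosome 11 (108395297 to 108414396), Apob on chromosome 12 (7977629 to 8016839) and Apom on chromosome 17 (35128997 to 35131801). Promoter windows of 250 bases before the transcription start were available from RefSeq for 7 of the 9 measured genes. Both strands were searched for a nuclear receptor half-site (AGGTCA), an HNF4A site (CAAAGTCCA), an NR5A2 site (TCAAGGTCA, which contains the half-site), an HNF1 half-site (GTTAAT), a C/EBP site (TTGCNNAAT) and a TATA box (TATAAA). Of 32851 windows of this length in the table, 14.0% hold AGGTCA, 0.384% CAAAGTCCA, 0.387% TCAAGGTCA, 6.43% GTTAAT, 2.11% TTGCNNAAT and 12.4% TATAAA. Windows are printed for Apoa5 and Apoh, which fell at 3 weeks, and for Apoa1, a cluster neighbour of Apoa5 that was not called at any week. They are written 5′ to 3′ on the plus strand with matches in capitals.
Apoa5, chr9:46268358-46268607, plus strand: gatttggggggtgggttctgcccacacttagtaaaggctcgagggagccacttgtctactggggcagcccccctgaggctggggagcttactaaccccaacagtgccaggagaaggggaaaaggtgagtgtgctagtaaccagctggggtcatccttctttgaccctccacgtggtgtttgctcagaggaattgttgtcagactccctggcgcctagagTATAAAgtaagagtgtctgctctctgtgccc
Apoh, chr11:108395047-108395296, plus strand: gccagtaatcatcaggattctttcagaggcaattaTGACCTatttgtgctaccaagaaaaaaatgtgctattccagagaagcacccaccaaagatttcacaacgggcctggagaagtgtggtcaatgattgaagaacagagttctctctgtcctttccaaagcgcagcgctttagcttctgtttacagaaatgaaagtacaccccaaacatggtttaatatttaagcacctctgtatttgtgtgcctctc
Apoa1, chr9:46228380-46228629, plus strand: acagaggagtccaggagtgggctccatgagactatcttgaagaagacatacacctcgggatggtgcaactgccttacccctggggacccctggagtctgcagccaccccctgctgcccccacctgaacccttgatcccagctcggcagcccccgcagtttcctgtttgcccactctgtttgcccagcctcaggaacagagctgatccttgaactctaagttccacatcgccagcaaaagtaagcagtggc
The Apoa5 window holds TATAAA at -31 from the start. In the Apoh window the match is the half-site on the minus strand, seen here as TGACCT at -215. None of these letter strings was found in the Apoa1 window, which says only that they are not in those 250 bases.

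At 3 weeks the lipase-related pair Apoc3 and Apoa5 was lower in the knockout, and Apoh was lower as well. Apoc3 ranged from -1.69 to -0.47 over the 6 arrays with a median of -1.38, and Apoa5 from -1.68 to -0.53 with a median of -0.99. Apoh ranged from -1.58 to -0.21 with a median of -0.60. All 6 arrays lay below 0 for each of these 3 genes. Means were -1.15 ± 0.53 for Apoc3 (adjusted p = 7.54e-06, limma, adjusted by Benjamini-Hochberg across 20861 items, that is genes and features without a gene name), -1.02 ± 0.39 for Apoa5 (adjusted p = 1.66e-04) and -0.73 ± 0.54 for Apoh (adjusted p = 8.76e-05). Thus 3 of 9 measured apolipoproteins (33.3%) passed as lower, where 3.75% of all items tested did so, and 0 passed as higher, where 3.64% did. In bulk liver, fewer cells of a type and less RNA per cell cannot be told apart.

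**Figure D1:**
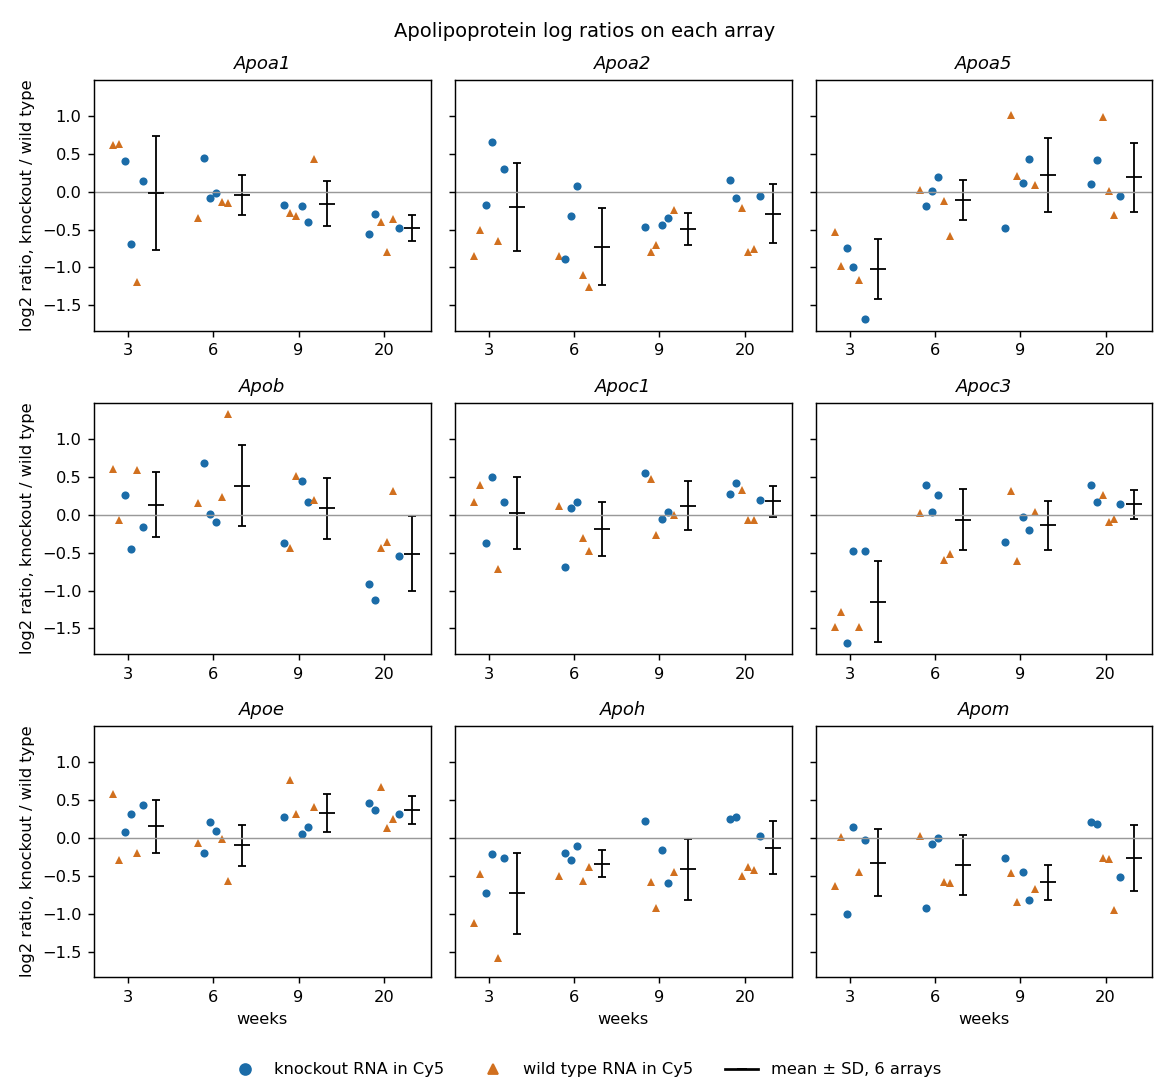
Log2 ratio of knockout over wild type (y axis, same scale in every panel) by week (x axis) for the 9 measured apolipoprotein genes. Each point is 1 array, with shape and colour giving the dye orientation, and bars give mean ± SD of 6 arrays. All 6 points of Apoc3, Apoa5 and Apoh lie below 0 at 3 weeks.

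The other 6 genes did not pass at 3 weeks. Apoa1, next to Apoc3, averaged -0.02 ± 0.76 and ran from -1.19 to 0.63, with 4 arrays above 0. The difference between Apoa1 and its neighbours was not tested. Apom averaged -0.32 ± 0.45 (adjusted p = 0.25), Apoa2 -0.20 ± 0.58, Apoe 0.15 ± 0.35, Apob 0.13 ± 0.43 and Apoc1 0.02 ± 0.47. Arrays on both sides of 0 were present for each of them.

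Other hepatocyte genes fell beside these 3. At 3 weeks 11 of 23 measured hepatocyte marker genes were lower (47.8%) and 2 higher (8.7%), beside 3.75 and 3.64% of all items. The median log2 ratio of this list was -0.49 against -0.00250 over all items, and its array medians ran from -0.73 to -0.17. Hepatocyte genes that fell include the fibrinogen chains Fgb (-0.89 ± 0.52) and Fga (-0.87 ± 0.68) and Arg1 of the urea cycle (-1.18 ± 0.87), whereas the transport proteins Hpx (1.22 ± 0.93) and Trf (1.23 ± 0.95) rose. The part of hepatocyte number in the apolipoprotein values was not tested. One array stood apart: over 15 exocrine pancreas genes the median was -3.95 on replicate 6 at 3 weeks and between -0.15 and 0.07 on the other 5. Without that array Apoc3 averaged -1.26, Apoa5 -0.89 and Apoh -0.77, and limma called all 3 (adjusted p = 7.57e-06, 0.00161 and 2.20e-04). Arrays kept in that fit also held low single pancreas genes. The lowest were -2.28, -3.50 and -4.15 on replicates 3, 4 and 5 at 3 weeks and -3.81 on replicate 1 at 20 weeks. The highest were 2.05 and 1.57 on replicates 3 and 5 at 3 weeks.

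Apoc3 and Apoa5 lay near 0 in the later weeks. Apoc3 averaged -0.06 ± 0.41 at 6 weeks, -0.14 ± 0.32 at 9 weeks and 0.14 ± 0.19 at 20 weeks, and its arrays lay on both sides of 0 at each of these times. Apoa5 averaged -0.11 ± 0.26, 0.22 ± 0.49 and 0.19 ± 0.46 at the same weeks, again with arrays on both sides. Neither gene passed at any of them. The difference between weeks was tested directly. The log2 ratio of Apoc3 was higher at 6 than at 3 weeks by 1.08 (95% interval 0.68 to 1.48, adjusted p = 0.00471) and at 20 than at 3 weeks by 1.28 (0.88 to 1.68, adjusted p = 5.27e-04). For Apoa5 these steps were 0.90 (0.44 to 1.37, adjusted p = 0.0459) and 1.21 (0.74 to 1.67, adjusted p = 0.00328). The 6 against 3 week step of Apoa5 was past the threshold in 7 of 24 fits that left out 1 array and missed it in 17, including those without replicates 2 to 6 at 3 weeks, while that of Apoc3 passed in all 24.

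Apoh passed as lower at 6 and 9 weeks as well. Its arrays ran from -0.57 to -0.11 at 6 weeks (median -0.33), from -0.93 to 0.23 at 9 weeks (median -0.52) and from -0.50 to 0.27 at 20 weeks (median -0.18). All 6 arrays were below 0 at 6 weeks, 5 of 6 at 9 weeks and 3 of 6 at 20 weeks. Means were -0.34 ± 0.18 at 6 weeks (adjusted p = 0.0262), -0.41 ± 0.40 at 9 weeks (adjusted p = 0.00709) and -0.13 ± 0.35 at 20 weeks (adjusted p = 0.51). The ratio was higher at 20 than at 3 weeks by 0.60 (0.29 to 0.92, adjusted p = 0.0231), while the step from 3 to 6 weeks, 0.39, missed the threshold (adjusted p = 0.25). Calls of Apoh leaned on single arrays. At 6 weeks the call was lost without replicate 2, 3, 4 or 5 (adjusted p = 0.0550 to 0.0953), at 9 weeks without replicate 5 (adjusted p = 0.0518), and the 20 against 3 week step was lost in 5 of 24 such fits, those without replicate 1, 3 or 5 at 3 weeks or replicate 1 or 2 at 20 weeks. The 6-week call was also lost with arrays scaled to a common spread, with the closest pair of arrays in each week averaged, with the median of ribosomal and respiratory chain genes as a covariate (chosen after seeing the data) and without the dye term (adjusted p = 0.0560 to 0.12). The 9-week call was also lost with the closest pair of arrays in each week averaged (adjusted p = 0.0562), without the dye term (0.0565) and with each week fitted alone (0.0608). The 20 against 3 week step was lost with the pair averaged and without the dye term.

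The ratio of knockout over wild type differed between 3 and 6 weeks for 2 of 9 apolipoproteins (1.30% of all items). Between 3 and 20 weeks it differed for 3 of 9 (4.57%). By the F test over the 4 weeks Apoc3 (adjusted p = 0.00135) and Apoa5 (adjusted p = 0.00480) passed, which is 2 of 9 where 5.08% of all items did, and Apoh did not (adjusted p = 0.0807), though it did under 5 of 11 other settings and without replicate 2 at 3 weeks. These contrasts share the 3-week arrays. From 6 to 9 weeks limma called 0 of 9 (0.0767% of all items), with 1, Apoe, at an unadjusted p under 0.05. From 9 to 20 weeks it called 0 of 9 (0.0959%), with 1, Apob, at an unadjusted p under 0.05.

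**Figure D2:**
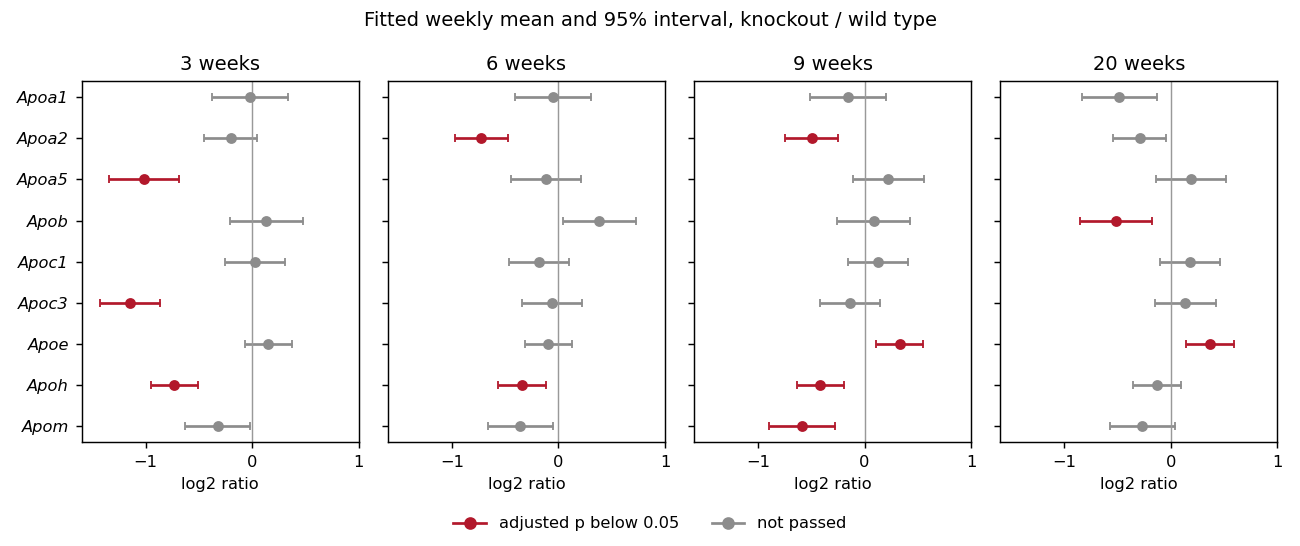
Fitted mean log2 ratio (x axis) with its 95% interval for each of 9 apolipoprotein genes (y axis) at each week. Red points passed an adjusted p of 0.05 and grey points did not. Apoc3 and Apoa5 lie near -1 at 3 weeks and have intervals that include 0 at 6, 9 and 20 weeks.

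Of the high-density lipoprotein proteins, Apoa2 passed as lower at 6 and 9 weeks. At 6 weeks its arrays ran from -1.26 to 0.07 with a median of -0.87, and at 9 weeks from -0.80 to -0.24 with a median of -0.45. Every array was below 0 at 9 weeks and 5 of 6 were at 6 weeks. Means were -0.72 ± 0.50 (adjusted p = 1.79e-04) and -0.50 ± 0.21 (adjusted p = 0.00431). At 20 weeks Apoa2 averaged -0.29 ± 0.39 and did not pass (adjusted p = 0.12). The step from 3 to 6 weeks, -0.52, did not pass either (95% interval -0.87 to -0.17, adjusted p = 0.15).

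Apom, the sphingosine-1-phosphate carrier, had negative means at all 4 weeks and passed at 9 weeks. Its 9-week arrays ran from -0.85 to -0.26 (median -0.57), all below 0, with a mean of -0.59 ± 0.23 (adjusted p = 0.00573). At 6 and 20 weeks it averaged -0.36 ± 0.40 (adjusted p = 0.0914) and -0.27 ± 0.44 (adjusted p = 0.26), with 4 of 6 arrays below 0 at each. Without replicate 1 at 6 weeks the value of that week was -0.46 and passed (adjusted p = 0.0461). No step between weeks passed for Apom.

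Apoa1, the main protein of the same particles, passed at no week. Its 20-week arrays ran from -0.79 to -0.30 (median -0.44). All 6 lay below 0 and the spread was small, -0.48 ± 0.18, but the adjusted p was 0.0670. The model shares 1 variance per gene over the weeks, and the 3-week arrays of Apoa1 varied widely. Fitted on the 20-week arrays alone Apoa1 passed (adjusted p = 0.00630), and it also passed without replicate 5 at 3 weeks, the lowest of that week (adjusted p = 0.0180). It passed as well with quantile normalization (adjusted p = 0.0368), with array weights (0.0399) and with samples 1 and 2 at 3 weeks left out (0.0265). At 6 and 9 weeks Apoa1 averaged -0.05 ± 0.26 and -0.16 ± 0.30.

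At 6 weeks the 2 of 9 apolipoproteins that were lower (22.2%) compare with 10.1% of all items, and 0 were higher, against 10.8%. At 9 weeks 3 of 9 were lower (33.3%) against 10.9% of all items. The genes lower at 9 weeks were Apoa2, Apoh and Apom.

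Apoe, the remnant ligand, was the only member that passed as higher. At 9 weeks its arrays ran from 0.06 to 0.77 with a median of 0.30, and at 20 weeks from 0.13 to 0.67 with a median of 0.35. All 12 arrays of these weeks lay above 0. Means were 0.33 ± 0.25 at 9 weeks (adjusted p = 0.0299) and 0.37 ± 0.19 at 20 weeks (adjusted p = 0.0238). At 6 weeks it averaged -0.09 ± 0.27, and the difference of 0.42 between 6 and 9 weeks did not pass (95% interval 0.11 to 0.74, adjusted p = 0.45). Each call was lost when 1 of 3 arrays was left out: replicate 2, 3 or 6 at 9 weeks (adjusted p = 0.0670 to 0.15) and replicate 1, 2 or 3 at 20 weeks (adjusted p = 0.0592 to 0.10). The 9-week call of Apoe was also lost with quantile normalization (adjusted p = 0.0675), with arrays scaled to a common spread (0.0889) and with array weights (0.11). As a share, 1 of 9 (11.1%) is close to the 10.4% of all items called higher at 9 weeks and the 8.09% at 20 weeks. Macrophages also express Apoe. Of 19 measured genes of a macrophage list 7, 14, 14 and 11 were higher at 3, 6, 9 and 20 weeks. These are 36.8, 73.7, 73.7 and 57.9%, beside 3.64, 10.8, 10.4 and 8.09% of all items. In order of week 0, 0, 1 and 1 were lower, the last 2 being 5.26% each, beside 10.9 and 5.37% of all items. Array medians of the list ran from 0.05 to 1.13 over the 24 arrays. Lyz2, with the largest mean of the list at 9 weeks, was higher by 2.45 ± 0.54, where the median of the list was 0.59. The part of macrophages in the Apoe values was not tested.

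Apoc1, the neighbour of Apoe, passed at no week. Its means were 0.02 ± 0.47, -0.18 ± 0.36, 0.12 ± 0.32 and 0.18 ± 0.21 at 3, 6, 9 and 20 weeks, and its arrays lay on both sides of 0 each time. At 20 weeks the 95% interval of -0.10 to 0.46 overlaps that of Apoe, 0.15 to 0.59. The difference between the neighbours was not tested.

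Apob, the structural protein of very-low-density lipoprotein, was lower at 20 weeks. Its arrays ran from -1.13 to 0.31 with a median of -0.49, and 5 of 6 were below 0. The mean was -0.51 ± 0.50 (adjusted p = 0.0408), and 1 of 9 genes lower (11.1%) stands beside 5.37% of all items. At 3, 6 and 9 weeks Apob averaged 0.13 ± 0.43, 0.39 ± 0.53 and 0.09 ± 0.40 without passing. The call was lost without replicate 1, 2, 3, 4 or 6 at 20 weeks (adjusted p = 0.0653 to 0.16). The difference between 9 and 20 weeks, -0.60, did not pass (adjusted p = 0.33).

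The 4 Apob features, averaged with equal weight in that mean, differed in their values and spread. At 20 weeks they averaged -0.32 ± 0.34 (adjusted p = 0.0281), -0.40 ± 0.33 (adjusted p = 0.19), -0.23 ± 0.30 and -1.10 ± 1.46. The sign was shared, but only the first of these passed, and the feature with the lowest value of -3.01 on 1 array also reached 2.94 at 6 weeks. Over the 24 arrays the SDs of the features were 0.29, 0.65, 0.27 and 1.37, the last one being the most variable. Pairs of features correlated with r from 0.46 to 0.82 over the 24 arrays. They belong to 2 annotated transcripts of the gene, with 2 features each.

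**Figure D3:**
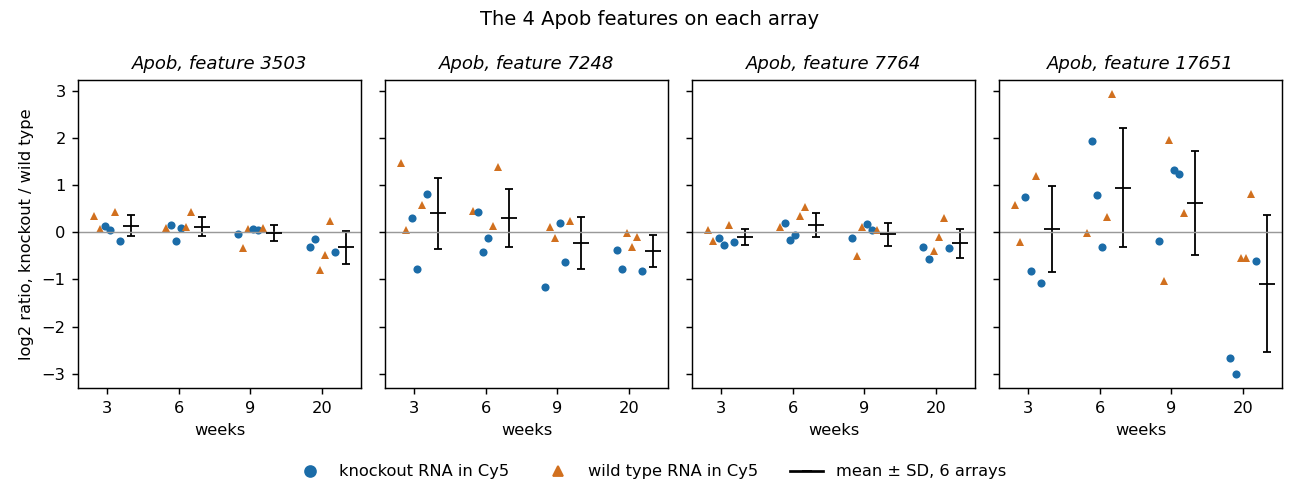
Log2 ratio (y axis) by week (x axis) for each of the 4 Apob features, numbered as in the array annotation, with points for single arrays, shape and colour for dye orientation and bars for mean ± SD of 6 arrays. All 4 means are below 0 at 20 weeks, and the last feature spreads from -3.01 to 2.94.

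Averaged over the 4 weeks, 5 of 9 apolipoproteins passed (55.6%), where 38.4% of all items did. Apoa2 (-0.43, 95% interval -0.55 to -0.30), Apoh (-0.40, -0.51 to -0.29), Apom (-0.38, -0.54 to -0.23) and Apoc3 (-0.30, -0.44 to -0.16) were lower and Apoe was higher (0.19, 0.08 to 0.30). Adjusted p-values were 5.65e-06, 2.77e-06, 2.29e-04, 0.00113 and 0.00698. Each of these 5 calls was made in all 24 fits that left out 1 array. The Apoc3 value averages weeks that differed, and of its weekly means that of 3 weeks alone passed. The median of the 9 genes was -0.18, against -0.00311 over all items.

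The dye orientation moved some of these values. A dye effect common to the weeks passed for 2 of the 9, Apoa2 (0.30 either side of the mean, adjusted p = 0.00404) and Apoh (0.26, adjusted p = 0.00492), and for 11.5% of all items. Apoa2 at 3 weeks averaged 0.26 on the 3 arrays with knockout RNA in Cy5 and -0.67 on the 3 with wild type RNA in Cy5. At 6 weeks both orientations were negative, -0.38 and -1.07, and at 9 weeks they were -0.42 and -0.58. Apoh at 20 weeks averaged 0.18 and -0.44 in the same order, and at 3 weeks -0.40 and -1.06. Thus the calls of Apoa2 and Apoh have one sign in both orientations, while their uncalled weeks, Apoa2 at 3 and 20 weeks and Apoh at 20 weeks, do not share a negative sign. The weekly means weigh the orientations equally.

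The apolipoproteins also varied from array to array, and partly together. With the dye term removed, Apob ran opposite to Apoc1 over the 24 arrays (r = -0.75, and -0.76 after removing the week means) and to Apom (r = -0.62 and -0.75). Apob here is the mean of its 4 features, whose SDs over the arrays were 0.29, 0.65, 0.27 and 1.37. Correlations with other genes were not computed for single Apob features. Apoc1 and Apom ran together (r = 0.61 and 0.72), as did the neighbours Apoc1 and Apoe (r = 0.61 and 0.50). In contrast Apoa5 and Apoc3 correlated at 0.71 over all arrays and at 0.19 within weeks, so most of their likeness lies in the difference between weeks. Apoa1 and Apoc3, which are adjacent, gave r = -0.24 and -0.02. All of these values share arrays, RNA extracts and normalization, and are descriptions over 24 arrays.

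For some of the genes the variation between arrays followed a wider pattern. The median of 125 ribosomal protein and respiratory chain genes, a list taken up after the values had been seen, ran from -0.50 to 0.35 between arrays. Against it Apom gave r = 0.85, Apoc1 0.82, Apoh 0.57 and Apoa2 0.49, and Apob gave r = -0.75, over 24 arrays with the dye term removed. Apoa1 gave -0.11. With this median as a covariate, added after seeing the data, Apoc3, Apoa5 and Apoh at 3 weeks, Apoa2 at 6 and 9 weeks, Apoh and Apom at 9 weeks, and Apob and Apoe at 20 weeks passed as they did without it. Apoh at 6 weeks then missed the threshold (-0.24, adjusted p = 0.0609). Apoc1 at 9 weeks (0.28, adjusted p = 0.0162) and Apom at 20 weeks (-0.26, adjusted p = 0.0147) passed with it.

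**Figure D4:**
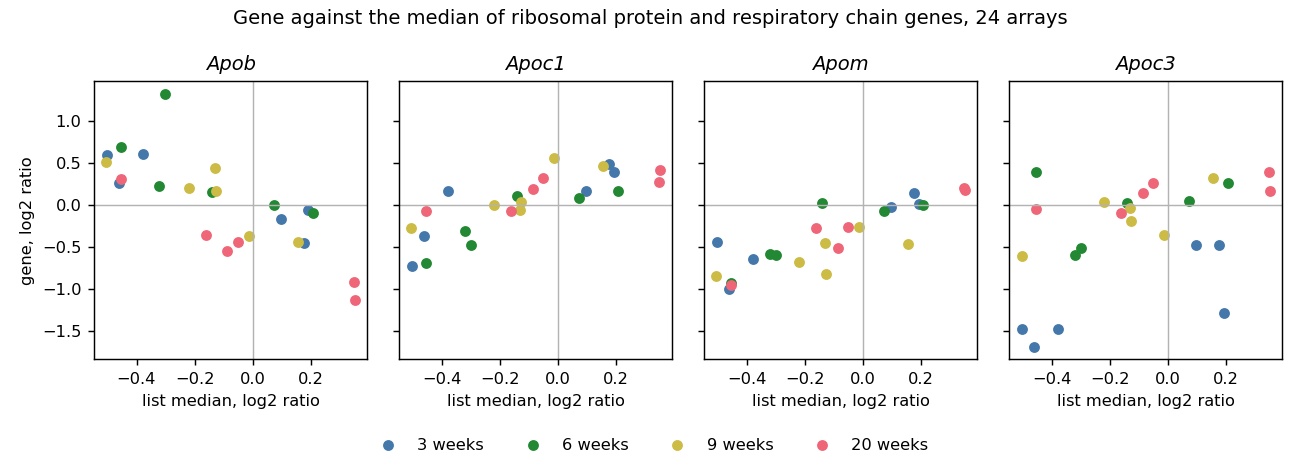
Log2 ratio of Apob, Apoc1, Apom and Apoc3 (y axis) against the median log2 ratio of 125 ribosomal protein and respiratory chain genes on the same array (x axis), before removal of the dye term. Each point is 1 of 24 arrays, coloured by week. Apob, the mean of its 4 features, falls and Apoc1 and Apom rise along the axis. The 3-week arrays of Apoc3 lie below arrays of other weeks with a similar list median, but not below all arrays of other weeks.

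For each apolipoprotein the 3 named genes with the most similar pattern over the 24 arrays were listed. Apoc3 was most like Asgr1, the hepatocyte asialoglycoprotein receptor subunit (r = 0.88), Mtarc1 (0.87) and Tstd3 (0.86). Apoh was most like Phyh, a peroxisomal hydroxylase (0.90), Rbp4, the plasma retinol carrier (0.86), and Tm2d2 (0.86). Apoa5 was nearest to Timp3, a metalloproteinase inhibitor (0.85), Fcgr3, an IgG receptor of myeloid cells (0.83), and Dock3 (0.82). Apoc1 was nearest to the respiratory chain subunits Ndufb2 (0.86) and Ndufa13 (0.86) and to Slc22a18 (0.86). Apom was nearest to Dpm3 (0.88), Rnaseh2c (0.87) and Ubl5 (0.86). Apob, as the mean of its 4 features, was nearest to Sh3bp5 (0.91), the translation initiation subunit Eif3a (0.90) and Rad23b (0.89). Apoa1 was closest to the nucleolar protein Ncl (0.88), Apoa2 to Tmem214 and Gstp3 (0.81 each) and Apoe to Rragc (0.81). These are by construction the highest of the genes searched and carry no test. The search left out the listed apolipoproteins, clone names, predicted genes and RIKEN names.

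Other apolipoprotein genes were measured on the same arrays, 13 of 15 listed. Clu, the chaperone also called apolipoprotein J, was higher at every week, by 3.11 ± 0.40, 1.52 ± 0.55, 1.72 ± 0.63 and 1.46 ± 0.15 at 3, 6, 9 and 20 weeks. Apoc2, the activator of lipoprotein lipase, lies in the same cluster as Apoc1 and Apoe and was higher at 3 weeks (1.16 ± 0.60, adjusted p = 1.33e-04), 9 weeks (0.79 ± 0.41) and 20 weeks (1.05 ± 0.40), with all 6 arrays above 0 at each. Its direction at 3 weeks was thus opposite to that of Apoc3, the lipase inhibitor. Apoc4, between Apoc2 and Apoc1, was lower at 3 weeks (-0.52 ± 0.52, adjusted p = 0.0237). Saa4 was lower at 9 weeks (-0.87 ± 0.52) and 20 weeks (-0.96 ± 1.08), and Pltp, the phospholipid transfer protein, was higher at 9 weeks (0.43 ± 0.28). In order of week, 2, 2, 4 and 4 of the 13 were higher and 3, 0, 1 and 1 lower. Of all items 3.64, 10.8, 10.4 and 8.09% were higher and 3.75, 10.1, 10.9 and 5.37% lower, so 2 of 13 higher at 6 weeks (15.4%) and 1 of 13 lower at 9 and 20 weeks (7.69%) are near the shares of all items.

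Genes that build Apob-containing particles passed at 0 of 16 at 3 weeks, when Apob itself did not pass either. At 6 weeks 1 was higher and 3 were lower (18.8%, beside 10.1% of all items). At 9 weeks 2 were higher and 1 lower (12.5 and 6.25%), near or below the shares of all items. At 20 weeks 3 of 16 were lower (18.8%, beside 5.37% of all items) and 0 higher. They were Mttp, which loads lipid onto Apob (-0.56 ± 0.51, adjusted p = 0.0272, 6 of 6 arrays below 0), A1cf, a cofactor of Apob mRNA editing (-0.39 ± 0.31), and the sorting receptor Sort1 (-0.24 ± 0.07). The median of the list at 20 weeks was -0.19, against -0.00342 over all items, and its array medians ran from -0.55 to 0.04. Sort1 was also lower at 6 weeks (-0.24 ± 0.12) and 9 weeks (-0.34 ± 0.17).

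Receptor and lipase genes gave calls in both directions. Of 16 uptake genes, 2, 4, 7 and 4 were higher at 3, 6, 9 and 20 weeks and 0, 2, 1 and 0 were lower. The 9-week share of 43.8% higher stands beside 10.4% of all items, while the 12.5% and 6.25% lower at 6 and 9 weeks are near or below the 10.1% and 10.9% of all items. Lsr, a receptor for triglyceride-rich particles, was higher at all 4 weeks (0.50 ± 0.62, 0.95 ± 0.35, 0.84 ± 0.51 and 0.79 ± 0.36), as was the remnant-binding proteoglycan Sdc1, whereas Cd36 passed at 6, 9 and 20 weeks with 1.34 ± 0.67 at 9 weeks. Of 14 lipase and remodelling genes, 0, 1, 3 and 2 were higher (0, 7.14, 21.4 and 14.3%) and 3, 3, 2 and 3 lower (21.4, 21.4, 14.3 and 21.4%). Shares of all items were 3.64, 10.8, 10.4 and 8.09% higher and 3.75, 10.1, 10.9 and 5.37% lower. Pon1, an esterase carried on high-density lipoprotein, was lower at all 4 weeks, from -1.12 ± 0.17 at 6 weeks to -0.77 ± 0.39 at 20 weeks. Lcat, which Apoa1 activates, was lower at 3 weeks (-0.81 ± 0.48), 6 weeks (-0.65 ± 0.22) and 9 weeks (-0.53 ± 0.32). Lpl, the enzyme that Apoc3 inhibits, was higher at 6 weeks (1.02 ± 0.58), 9 weeks (1.09 ± 0.53) and 20 weeks (1.22 ± 0.30), but not at 3 weeks (0.17 ± 0.64, adjusted p = 0.77).

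**Figure D5:**
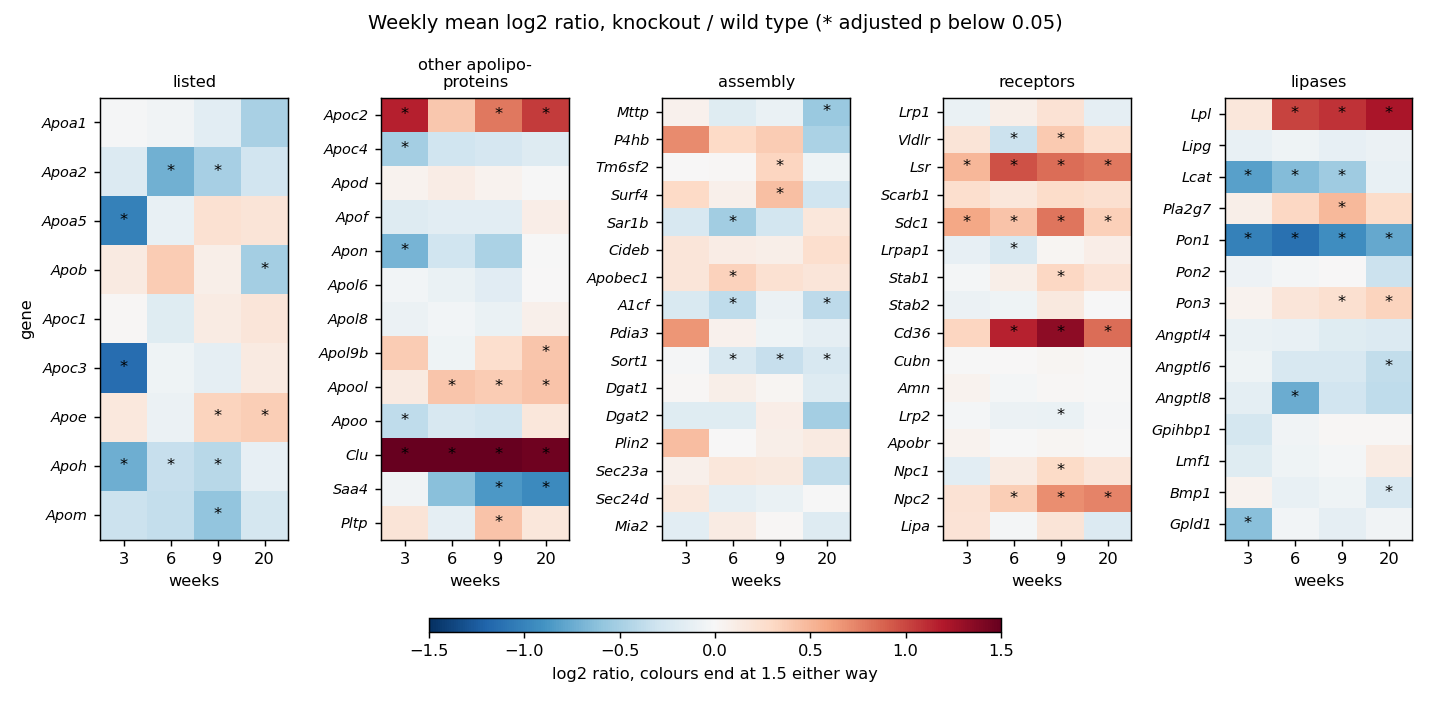
Mean log2 ratio by week (x axis, colour scale) of the listed apolipoproteins, other apolipoproteins, particle assembly genes, receptors and uptake genes, and lipases with plasma remodelling genes (rows). An asterisk marks an adjusted p below 0.05. Clu exceeds the colour scale at 3, 6 and 9 weeks, and Pon1 is lower at all 4 weeks.

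Among 27 measured transcription factors known to act on apolipoprotein genes, 0 were higher and 2 lower at 3 weeks (7.41%, beside 3.75% of all items). These were the bile acid receptor Nr1h4 (-0.56 ± 0.52, adjusted p = 0.00788) and the oxysterol receptor Nr1h3 (-0.45 ± 0.38, adjusted p = 0.00419), each below 0 on 6 of 6 arrays. At 6, 9 and 20 weeks 3, 1 and 1 were higher (11.1, 3.70 and 3.70%, near or below the share of all items) and 6, 4 and 5 lower (22.2, 14.8 and 18.5%). Ppara was lower at 6 weeks (-0.55 ± 0.20) and 20 weeks (-0.43 ± 0.15), and Nr0b2, a repressor induced through Nr1h4, was lower at 6 weeks (-0.87 ± 0.30) and 9 weeks (-0.56 ± 0.75).

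Of 12 phosphatidylcholine synthesis genes, 1 was higher and 3 lower at 3 weeks (8.33 and 25%, beside 3.64 and 3.75% of all items). Pemt, which methylates phosphatidylethanolamine (-0.43 ± 0.19), and the methyl-group enzyme Gnmt (-1.34 ± 0.55) fell, while the choline kinase Chka rose (0.78 ± 0.30). At 6 weeks 4 were higher and 4 lower (33.3% each, beside 10.8 and 10.1% of all items). At 9 and 20 weeks 1 was higher and 1 lower (8.33% each), near the shares of all items. Of 11 measured cholesterol and phospholipid transporters 0, 1, 1 and 1 were higher and 1, 2, 3 and 2 lower at the 4 weeks. Abcb4 was included among those lower. The 9.09% higher at 6, 9 and 20 weeks is near the 10.8, 10.4 and 8.09% of all items. The shares lower were 9.09, 18.2, 27.3 and 18.2% in order of week, beside 3.75, 10.1, 10.9 and 5.37% of all items. Abcg1 was higher at 6, 9 and 20 weeks (0.36 ± 0.09, 0.46 ± 0.26 and 0.48 ± 0.28).

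Of 22 stellate cell and myofibroblast genes 9, 18, 19 and 13 were higher and 0 lower, beside 3.64, 10.8, 10.4 and 8.09% of all items higher, and of 16 cholangiocyte genes 5, 7, 9 and 8 were higher, with 1 lower at 20 weeks. Hepatocyte genes were lower in 11, 5, 7 and 6 of 23 (47.8, 21.7, 30.4 and 26.1%). They were higher in 2, 1, 3 and 2 (8.7, 4.35, 13 and 8.7%). Of 16 endothelial genes 0, 4, 2 and 1 were higher (0, 25, 12.5 and 6.25%) and 2, 3, 0 and 1 lower (12.5, 18.8, 0 and 6.25%). Of all items 3.75, 10.1, 10.9 and 5.37% were lower. Of 15 lymphocyte genes 0, 2, 1 and 2 were higher and 0, 1, 1 and 0 lower. The lymphocyte shares were near or below those of all items at most weeks. Of 12 enterocyte genes, a source of Apob and Apoa1 outside the liver, 0, 2, 2 and 2 were higher and 1, 2, 0 and 0 lower. The part of any cell type in the apolipoprotein ratios was not tested.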

How the data were processed

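The authors deposited log ratios of 22575 features on 24 arrays, taken here as log2 values. For the log base, the background correction, the normalization within arrays and any filtering, the sources used here give nothing. Per the labels, RNA was extracted with an RNeasy protocol and labelled in Cy5 and Cy3 with a FairPlay kit. No value was missing, and array medians lay between -0.037 and 0.015. Background levels of the scans are not analysed here, and precision is limited by the number of arrays.

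Features were named through the platform annotation and symbols updated through RefSeq (GRCm38.p6), which changed 0 of them; 18218 features had 1 gene, 16 several and 4341 none. Reading the grid of 215 by 105 by column with both axes reversed gave a mean of the median r between copies of 0.66 over 48 accessions spotted repeatedly (31 of 48 above 0.5), against 0.00721 (0 of 48) in the direct join. This layout was settled from the values, and every gene name rests on it.

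The sign was turned on the arrays whose Cy5 channel held wild type RNA, each array was centred on its median, and features of a gene were averaged. A linear model with 4 week means and a dye orientation term was fitted over 20861 items and 24 arrays in limma 3.58.1 (lmFit, eBayes; R 4.3.3), two-sided, with Benjamini-Hochberg adjustment and a threshold of 0.05. The model was also run on simulated data with known changes and independent noise between arrays. That run cannot show how the p-values behave where mice recur on arrays. Differences between weeks were contrasts of the week means and the F test. The 10 genes, the gene lists and the tests were chosen with earlier results of these data known. Genes named from a list are some, not all, of those with the smallest p in the mean of the weeks, the F test or a week. Cyp2e1, Npc2, Thrb and Chpt1, each first of its list in 1 or more of these rankings, are not described. For each apolipoprotein the text names some or all of the 3 most correlated genes of those searched.

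Alternatives changed the normalization, the centring, the dye term, the variance prior, array weights, the features of a gene and the arrays included. Sample numbers in the titles were checked for pairing: same-numbered arrays of different weeks gave correlations of their deviations from -0.36 to 0.50, so the numbers were not taken to pair samples.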

Additional observations from a re-analysis of the deposited data

Results flagged for a closer look

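The knockout difference varied with the week, by at least 1 test of the difference itself, for 3 apolipoproteins. For 20 against 3 weeks 3 of 9 passed, where 4.57% of all items did. In the F test 2 of 9 passed, where 5.08% of all items did. For Apoc3 the adjusted p was 0.00135 in the F test over the 4 weeks, 0.00471 for 6 against 3 weeks and 5.27e-04 for 20 against 3 weeks. For Apoa5 the same values were 0.00480, 0.0459 and 0.00328. For Apoh the 20 against 3 week difference had an adjusted p of 0.0231, but the F test did not pass (adjusted p = 0.0807). Leaving out 1 array lost this Apoh difference in 5 of 24 fits. The 6 against 3 week difference of Apoa5 was lost in 17 of 24. For each of the 3 genes the ratio was lower at 3 weeks, and the contrasts share the 3-week arrays.

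One array lay far from the other 5 of its group: Apoa1 on replicate 6 at 9 weeks, at 0.43, where the others ran from -0.40 to -0.18. The gap exceeded Dixon's 95% critical value for 6 samples in 1 of 36 groups tested, and chance flags about 1 group in 20.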

How the results depend on the processing

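Each of 36 weekly apolipoprotein values was recomputed under 36 alternatives. Of the values obtained, 1244 kept their direction and side of the threshold, 29 fell below it, 8 passed it and 15 changed sign. Apoa5 and Apoc3 at 3 weeks, Apoa2 at 6 and 9 weeks and Apom at 9 weeks kept their calls under all 36 alternatives. The cause of the changes below was not tested.

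The count of apolipoproteins at 6 weeks, 2, became 1 with arrays scaled to a common spread, without the dye term, with the closest pair of arrays averaged and with the added covariate; the count at 20 weeks, 2, became 1 without the dye term. The count for 6 against 3 weeks, 2, became 1 with quantile normalization, without the dye term and with the closest pair averaged. The F test count, 2, became 4 with array weights and with the covariate, Apob and Apoh being added. Apoh alone was added to it with arrays scaled to a common spread, with the replicate number as a block, with samples 1 and 2 at 3 weeks left out and without replicate 2 at 3 weeks, and Apob alone without replicate 2 at 9 weeks or replicate 5 at 20 weeks. With the replicate number as a block, the 20-week count was 1, Apob being lost (adjusted p = 0.0512); it changed no other weekly call.

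Leaving out 1 array at a time gave 1 to 3 apolipoproteins at 6 weeks, 0 to 3 at 20 weeks (0 without replicate 1, 2 or 3 of that week) and 1 to 2 for 6 against 3 weeks. Values that changed sign, none of them called, ranged over these fits from -0.16 to 0.22 (Apoa1, 3 weeks), -0.0716 to 0.16 (Apoc1, 3 weeks), -0.15 to 0.0108 (Apoa1, 6 weeks), -0.13 to 0.0180 (Apoc3, 6 weeks), -0.15 to 0.0018 (Apoe, 6 weeks) and -0.0315 to 0.24 (Apob, 9 weeks). Apoa1 at 3 weeks was 0.0081 with quantile normalization, and Apoc1 was -0.17 with samples 1 and 2 of that week left out. Apob at 9 weeks was -0.0139 with its lowest-numbered feature. With the covariate Apob was -0.0583 at 3 weeks and -0.10 at 9 weeks, and Apoc3 0.0489 at 6 weeks. Apoa1 at 20 weeks passed with quantile normalization, with array weights, with each week fitted on its own and with samples 1 and 2 at 3 weeks left out. Apoh at 3 weeks missed the threshold with each week fitted on its own (adjusted p = 0.0701). At 9 weeks Apoh missed it without the dye term, with each week fitted alone and with the closest pair averaged (adjusted p = 0.0562 to 0.0608), and Apoe with quantile normalization, a common spread and array weights (0.0675 to 0.11). Apoh for 20 against 3 weeks missed it without the dye term and with the closest pair averaged.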
